A study of Culex pipiens pallens and Culex quinquefasciatus with 12 samples.

Results

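The genes described here are those of *Culex* larvae that act in immune recognition, in the protease cascades that lead to melanization, and as antimicrobial effectors. They were chosen by words in the gene descriptions of the deposited tables: defensin, cecropin, lysozyme, gambicin, peptidoglycan, gram-negative bacteria or gram negative, thioester, macroglobulin, phenoloxidase, toll, serpin and CLIP-domain. The words attacin, diptericin, holotricin and leucine-rich immune were also searched and matched no gene. The rule took 96 of the 17757 gene models with a read in any library, and it used no measured value. By role they were 25 serpins, 13 genes taken by the words thioester or macroglobulin, 12 genes of the phenoloxidase cascade, 11 peptidoglycan recognition proteins, 10 CLIP-domain serine proteases, 8 Toll receptors and Toll-named proteins, 8 Gram-negative bacteria-binding proteins, 5 lysozymes and 4 antimicrobial peptides. The word thioester also took 7 intracellular thioesterase enzymes, such as ubiquitin thioesterase OTU1 and palmitoyl-protein thioesterase 1, which are not thioester-containing immune proteins. They are counted among the 96 and described apart.

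The study sequenced larval RNA from 7 libraries of *Culex pipiens pallens*, a temperate-zone house mosquito of East Asia, and 5 libraries of *Cx. p. quinquefasciatus*, the southern house mosquito. Each library was a pool of RNA from 30 whole larvae, from which poly(A) RNA was taken for libraries that do not record the strand. The series title names different resistance levels, yet no label assigns a level, a strain, an age or a treatment to any library, so subspecies was the comparison made. Nothing in the labels says that the libraries came from separate colonies or collections, so the p-values measure the spread between these libraries, which may be partly technical.

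In insects, peptidoglycan recognition proteins and Gram-negative bacteria-binding proteins sense cell wall sugars of bacteria and fungi and pass the signal to the Toll and Imd pathways, which in fat body and blood cells switch on genes of antimicrobial peptides. A parallel branch runs in the haemolymph: CLIP-domain serine proteases cut one another and then prophenoloxidase, whose active form makes melanin around wounds and invaders, and serpins trap the proteases as pseudo-substrates. Macroglobulin and complement-like proteins attach to microbial surfaces and mark them for uptake or lysis.

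Unique reads per library numbered 3.9e6 to 4.9e6 in pallens and 4.4e6 to 5.2e6 in quinquefasciatus. Across all 10617 genes that passed the filter on low counts, 57 were called at an adjusted p under 0.05, 36 higher and 21 lower in pallens, by edgeR's quasi-likelihood test with Benjamini-Hochberg adjustment. The subspecies did not separate cleanly. CPM is the count per 1e6 reads after scaling by the trimmed mean of M-values. On log2(CPM + 1) over these genes, 3 of the 12 libraries correlated better on average with the other subspecies than with their own: pallens 1 (mean r 0.925 with quinquefasciatus and 0.880 with the other pallens libraries), pallens 4 (0.936 and 0.912) and, narrowly, quinquefasciatus 2 (0.909 with pallens and 0.907 with its own). Pallens 1 and quinquefasciatus 5 were each other's closest library (r = 0.954), and pallens 6 and 7 were the closest pair of all (r = 0.970). Larval storage proteins summed to 115675 ± 58494 CPM in pallens and 138826 ± 29530 in quinquefasciatus (SD). Pallens 6 and 7 were lowest in the larval storage protein list, with a mean log2(CPM + 1) of 8.44 and 8.05 against 9.63 to 11.5 in the others. The cuticle protein list, whose genes are read mainly around the molts, summed to 14114 ± 13423 CPM in pallens and 5996 ± 6336 CPM in quinquefasciatus (SD, n = 7 and 5), and its part in the immune results was not tested beyond a fit with it as a covariate. In pooled whole larvae, fewer cells of a type and less RNA per cell cannot be told apart.

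None of the immune genes passed the test between the subspecies after adjustment over all genes. Of the 96, 64 passed the filter on low counts and 32 did not, and 0 of the 64 were called (0 higher and 0 lower in pallens), against 0.537% of all genes tested (0.339% higher and 0.198% lower). At an unadjusted p under 0.05, 15 of the 64 passed (23.4%), 6 higher and 9 lower in pallens, against 13.0% of all genes tested (6.55% higher and 6.46% lower). With the mean of the cuticle list as a covariate, 7 of 64 passed (10.9%, against 10.9% of all genes). Without pallens 1 and quinquefasciatus 5 together, 12 of 65 passed (18.5%, against 18.3% of all genes). In every other alternative the share of immune genes stayed above that of all genes. It ran from 14.3% against 11.3% (without pallens 5) to 26.6% against 19.0% (without pallens 1). DESeq2 called 1 immune gene, serpin B10, among 325 calls over all genes, and limma-voom called 0 among 92. Without pallens 1 edgeR called 2, both lower in pallens: CPIJ004320 and CPIJ000615, described with their roles. That fit called 230 over all genes, against 57 with all libraries. The median log2 change of the 64 was -0.06, against 0.02 over all genes, with 25 above 0 and 39 below. Without quinquefasciatus 1 the median was 0.03, and under every other alternative it was below 0.

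Many of the intervals were wide. The 95% interval of the log2 change lay within 2-fold on either side for 32 of the 64, against 65.2% of all genes tested, and for the other 32 it reached past 2-fold. Each interval here is the estimate plus or minus 1.96 SE, a normal multiplier, although the test has few degrees of freedom. The intervals are thus somewhat too narrow, and the counts within 2-fold are upper limits. No tested gene of the 96 had libraries that failed to overlap between the subspecies, against 1.22% of all genes tested. The plot of the change by gene shows the intervals, role by role.

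**Figure D1:**
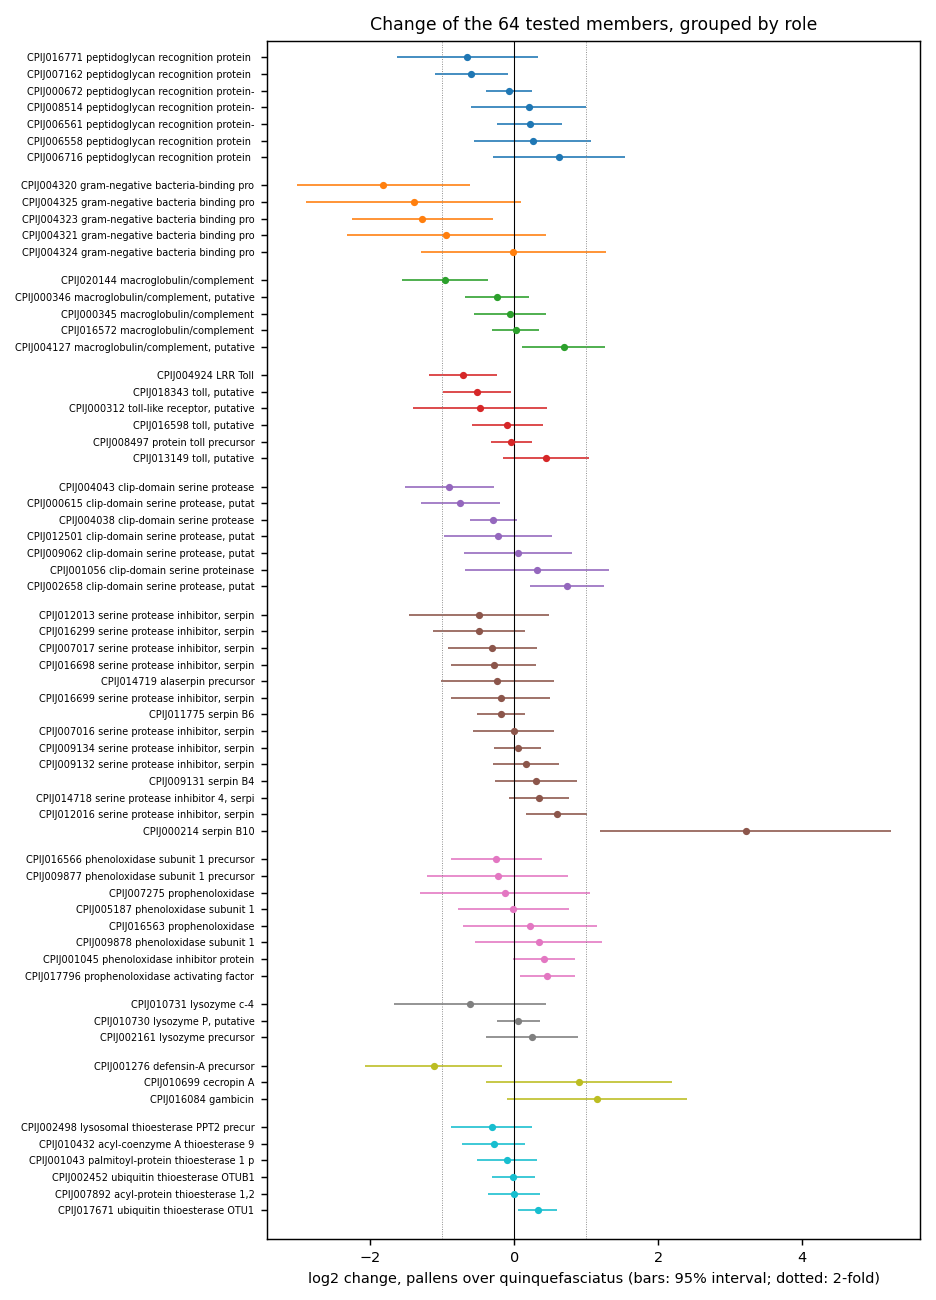
Log2 change, pallens over quinquefasciatus, of the 64 tested genes (edgeR, 7 and 5 libraries), ordered by role with a colour for each role. Points are estimates, bars are 95% intervals and dotted lines mark 2-fold. All 5 tested Gram-negative bacteria-binding proteins lie below 0, and serpin B10 stands alone at 3.21 with the widest bar.

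A single recognition protein held the largest share of the summed level per length. Levels between genes are compared in RPKM, reads per kilobase of model and per 1e6 reads, as deposited. The peptidoglycan recognition proteins made up 28.4% of the summed mean RPKM of the 96 genes, of which CPIJ016771 alone made 25.6% and the other 10 genes of the role 2.84%. The Gram-negative bacteria-binding proteins made up 14.3%, the serpins 13.5%, the antimicrobial peptides 12.5%, the CLIP-domain proteases 11.1%, and the lysozymes 2.35%. In all, 40 of the 96 had a mean of at least 10 RPKM, 5 reached 100 RPKM, and 25 stayed under 1 RPKM. All 12 libraries held reads of 73 genes, and 23 genes had at least 1 library at 0. The 32 untested genes had at most 5.05 RPKM on average and at most 46 reads in any library. The 96 genes lie on 66 scaffolds, and 42 of them form 16 groups in which each gene is within 20 kb of another. The 96 genes together took 0.193% to 0.259% of the unique reads in pallens and 0.241% to 0.322% in quinquefasciatus, so the ranges overlapped. Summed CPM was 2266 ± 384 in pallens and 2945 ± 619 in quinquefasciatus (SD).

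**Figure D2:**
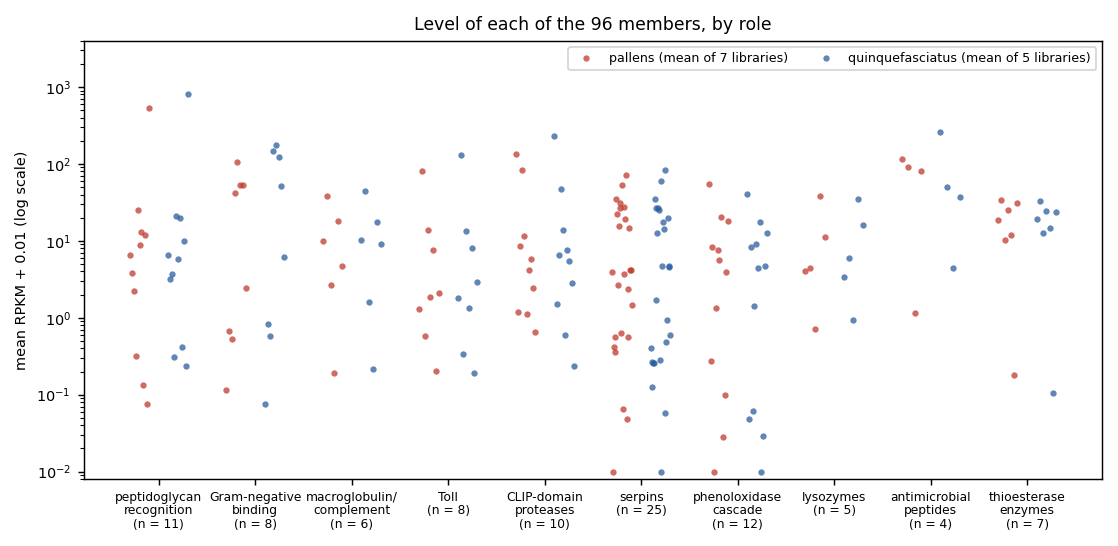
Mean RPKM plus 0.01 (log axis) of each of the 96 genes by role, with the mean of 7 pallens libraries in red and of 5 quinquefasciatus libraries in blue. One peptidoglycan recognition protein tops both subspecies, and the thioesterase enzymes fill a narrow band apart from a single low gene.

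Among the recognition proteins, a single short peptidoglycan recognition protein, CPIJ016771, led the whole set with a mean of 647 RPKM over the 12 libraries (191 to 1327). The gene model lies on supercont3.823, positions 92607 to 93173 on the minus strand, and its coding length is 567 bases. In pallens it ranged from 146 CPM (pallens 6) through a median of 226 to 563 (pallens 4), and in quinquefasciatus it was 104, 508, 219, 701 and 903 CPM in libraries 1 to 5. All 7 pallens libraries lay inside the quinquefasciatus range. The log2 change was -0.65 (95% interval -1.63 to 0.33, edgeR adjusted p = 0.584).

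The other peptidoglycan recognition proteins were far lower, from 0.134 to 23.7 RPKM. Of the 7 tested, 4 log2 changes were above 0 and 3 below, between -0.65 and 0.62. CPIJ007162 had the smallest p of the role, with 7.32 ± 1.46 CPM in pallens and 11.01 ± 4.42 in quinquefasciatus (SD), or -0.60 in log2 change (SE 0.26, edgeR adjusted p = 0.357). Its pallens libraries lay between 5.30 and 9.36 CPM, quinquefasciatus 2 fell inside that range with 7.80, and quinquefasciatus 5 just under it with 5.24. On supercont3.121, 4 genes of the role lie side by side within 36405 bases: 1 described as PGRP-LA and 3 as isoforms of PGRP-LC, the transmembrane receptor that opens the Imd pathway in *Drosophila*. They were read unequally. CPIJ006561 had a mean of 23.7 RPKM, CPIJ006558 had 3.51, CPIJ006559 had 2.82 and CPIJ006560 had 0.305. CPIJ006561 had 35.4 ± 9.55 CPM in pallens and 30.5 ± 9.82 in quinquefasciatus, with a log2 change of 0.22 (SE 0.23, adjusted p = 0.700).

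The Gram-negative bacteria-binding proteins, relatives of beta-1,3-glucanases that bind microbial sugars, had, with the antimicrobial peptides, the widest spread within a subspecies. Of 8 genes, 5 lie in a row within 23380 bases of supercont3.65 (1026333 to 1049712), and these 5 were the tested ones. All 5 log2 changes were negative, with a median of -1.27. The 3 others had under 1 RPKM and were not tested. Summed over the role, pallens libraries held 305 ± 205 CPM and quinquefasciatus libraries 641 ± 417 (SD).

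The first gene of the row, CPIJ004320, described as the precursor of Gram-negative bacteria-binding protein 1, ranged in pallens from 18.0 CPM through a median of 33.4 to 189. In quinquefasciatus it was 114, 194, 62.0, 288 and 272 CPM in libraries 1 to 5. The pallens maximum was pallens 1, and the next highest pallens library had 49.6 CPM, below every quinquefasciatus library. The log2 change over all libraries was -1.82 (SE 0.61, 95% interval -3.02 to -0.62, edgeR adjusted p = 0.232). Without pallens 1 it was -2.63 and passed the threshold (edgeR adjusted p = 0.0116), and without pallens 1 and quinquefasciatus 5 together it was -2.45 (adjusted p = 0.0115). Over all alternatives its adjusted p ran up to 0.489.

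Its neighbours followed in part. CPIJ004323 ranged in pallens from 31.2 CPM through 43.9 to 166, again with pallens 1 highest, and was 104, 95.1, 51.5, 268 and 257 CPM in quinquefasciatus, or -1.27 in log2 change (SE 0.50, edgeR adjusted p = 0.302). CPIJ004325, the last of the row and the least read at 3.97 RPKM, ranged in pallens from 0.219 CPM through 1.96 to 12.7 and was 4.39, 3.59, 1.61, 11.7 and 19.1 CPM in quinquefasciatus (log2 change -1.40, SE 0.76, adjusted p = 0.448). For all 3 genes pallens 1 was the highest of its subspecies, quinquefasciatus 4 and 5 were the highest of theirs, and quinquefasciatus 3 was the lowest.

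The other neighbours each departed from this profile in part, CPIJ004321 in pallens and CPIJ004324 in quinquefasciatus. CPIJ004321, the second gene of the row and its most abundant at 134 RPKM, was high in pallens 6 and 7, with 269 and 238 CPM, while pallens 2, 3 and 5 had 31.7, 31.0 and 38.4 CPM. In quinquefasciatus it was 109, 147, 27.9, 320 and 507 CPM, with libraries 4 and 5 again highest and library 3 lowest. Its log2 change was -0.94 (95% interval -2.31 to 0.44, adjusted p = 0.570). CPIJ004324 ranged in pallens from 11.4 CPM through 63.7 to 176, with pallens 1 again highest and pallens 7 next at 88.9. In quinquefasciatus it was 86.9, 18.6, 21.4, 150 and 64.5 CPM, with library 4 highest. The means, 67.7 ± 55.9 and 68.3 ± 54.1, all but coincided (log2 change -0.01, 95% interval -1.29 to 1.27). Neighbouring genes within one row thus differed in the libraries where they were high. Reads were counted only where they mapped uniquely, so reads shared between close copies are missing from all 5.

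**Figure D3:**
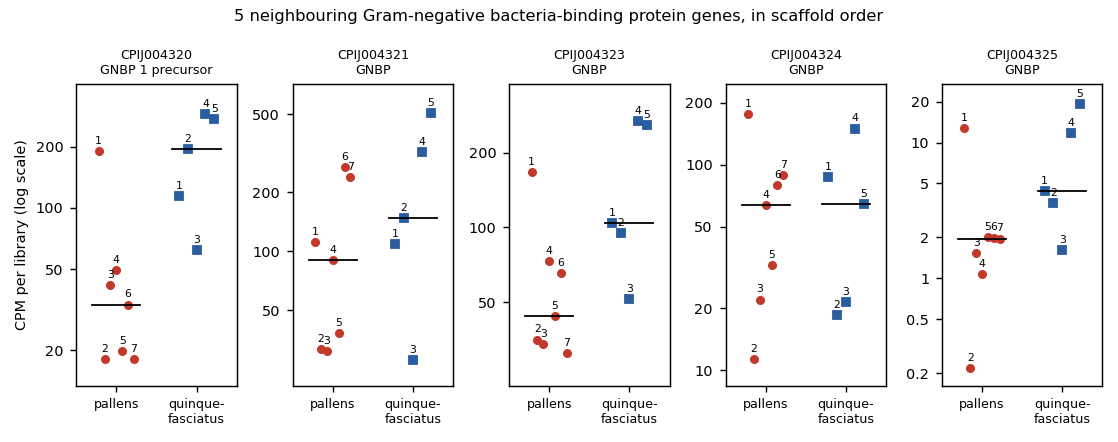
CPM per library (log axes, a scale for each panel) of the 5 neighbouring Gram-negative bacteria-binding protein genes in scaffold order, pallens as red circles and quinquefasciatus as blue squares, numbered by replicate, with a line at the median. Pallens 1 stands above the other pallens libraries in all but CPIJ004321. Quinquefasciatus 4 and 5 are high in all but CPIJ004324, where only quinquefasciatus 4 is.

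Across the 12 libraries, CPIJ004320 and CPIJ004323 had the smallest permutation p of Pearson's r among the 2016 pairs of tested immune genes, on log2(CPM + 1). Pearson's r was 0.92 (permutation p = 5e-05) and Spearman's rho was 0.91 (permutation p = 0.00014). Without the pair of libraries farthest from the median of CPIJ004320 alone, r was 0.87. Within the subspecies r was 0.90 over 7 pallens libraries and 0.92 over 5 quinquefasciatus libraries. With Benjamini-Hochberg adjustment over 2016 pairs the permutation p was 0.0893, and 0 of the pairs passed. The 22 pairs of genes that lie within 20 kb of each other had a median r of 0.59, against 0.03 for the other 1994 pairs. These pairs share libraries and genes, so the medians are a description only.

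Among the macroglobulin and complement genes, kin of the thioester-containing proteins that opsonize microbes in mosquitoes, the lead was CPIJ000346 with 41.2 RPKM and 161 ± 47.7 CPM in pallens and 190 ± 35.1 in quinquefasciatus (SD), a log2 change of -0.24 (95% interval -0.69 to 0.21). CPIJ020144 had the smallest p of all 64 immune genes. It ranged in pallens from 2.60 CPM through 3.03 to 6.26 and was 7.64, 5.27, 11.3, 7.69 and 3.41 CPM in quinquefasciatus. In 5 pallens libraries it lay below every quinquefasciatus library, and in pallens 3 and 4, with 4.62 and 6.26, inside their range. The log2 change was -0.96 (SE 0.31, 95% interval -1.56 to -0.36, edgeR adjusted p = 0.201). CPIJ004127 leaned the other way, with 10.3 ± 3.80 CPM in pallens and 6.39 ± 2.52 in quinquefasciatus (log2 change 0.69, SE 0.29, adjusted p = 0.352). The role thus held both directions, 2 above 0 and 3 below, with a median of -0.06.

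The Toll group is made of the transmembrane receptors that respond to the cytokine Spätzle, and of proteins named after them. The gene described as LRR Toll, CPIJ004924, was by far the highest, with 103 RPKM, and its coding length of 936 bases is short for a full receptor. It ranged in pallens from 51.6 CPM through 66.7 to 134 and was 128, 111, 128, 169 and 86.8 CPM in quinquefasciatus. All pallens libraries but pallens 4 lay below every quinquefasciatus library. The log2 change was -0.71 (SE 0.24, edgeR adjusted p = 0.236). Over all alternatives its adjusted p lay between 0.0855 and 0.545.

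The gene described as protein toll precursor, CPIJ008497, was among the steadiest of the 64. It had 45.0 ± 7.30 CPM in pallens and 46.2 ± 3.80 in quinquefasciatus, and the 12 libraries spanned 1.57-fold. Its SD within a subspecies was 0.17 on the log2 scale, at percentile 3.59 of the 7190 genes whose average log2 CPM reached 3. The 95% interval of its log2 change was -0.33 to 0.25, well inside 2-fold. CPIJ018343 had 8.80 ± 1.45 CPM in pallens and 12.6 ± 5.50 in quinquefasciatus (log2 change -0.52, SE 0.24, adjusted p = 0.384). Quinquefasciatus 3, with 21.6 CPM, was the highest library for it. Over the 6 tested genes of the group the log2 changes lay between -0.71 and 0.44, with 1 above 0.

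Of the CLIP-domain serine proteases, which relay recognition to Toll and to prophenoloxidase, CPIJ000615 was the most abundant, with 175 RPKM. It ranged in pallens from 83.0 CPM through 100.3 to 265 and was 190, 222, 247, 268 and 193 CPM in quinquefasciatus. The quinquefasciatus libraries were tight, all within 1.41-fold, and only pallens 1 reached them, the next pallens library having 155 CPM. Over all libraries the log2 change was -0.75 (SE 0.28, 95% interval -1.30 to -0.19, edgeR adjusted p = 0.291). Without pallens 1 it was -1.003 and passed (edgeR adjusted p = 0.0321), and without pallens 1 and quinquefasciatus 5 together it was -1.05 (adjusted p = 0.0308), while over all alternatives the adjusted p ran up to 0.561.

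CPIJ002658 was the only one of the 3 proteases with a p under 0.05 before adjustment to lie higher in pallens, with 76.7 ± 31.5 CPM against 46.3 ± 6.38 in quinquefasciatus. Its log2 change was 0.73 (SE 0.26, adjusted p = 0.259). Pallens 6 and 7, with 129 and 114 CPM, were the high libraries, and the other 5 pallens libraries had 46.2 to 64.6 CPM. CPIJ004043, in a row of 3 such genes on supercont3.57, had 6.01 ± 1.73 CPM in pallens and 11.2 ± 5.80 in quinquefasciatus (log2 change -0.90, SE 0.32, adjusted p = 0.254). Its high libraries were quinquefasciatus 3 and 5, with 18.0 and 16.8 CPM, and the other 3 of that subspecies overlapped pallens. The 7 tested proteases had 3 log2 changes above 0 and 4 below.

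The serpins were the largest role, and they summed to 459 ± 42.5 CPM in pallens and 463 ± 39.2 in quinquefasciatus, with 6 log2 changes above 0 and 8 below. Alaserpin CPIJ014719 led with 76.8 RPKM. It ranged in pallens from 47.4 CPM through 64.9 to 224, with pallens 1 highest, and was 87.7, 93.0, 69.7, 154 and 152 CPM in quinquefasciatus (log2 change -0.23, 95% interval -1.02 to 0.55). Serpin B6 CPIJ011775 varied least among the abundant ones, with 80.6 ± 16.6 CPM in pallens and 91.6 ± 5.47 in quinquefasciatus and an interval of -0.51 to 0.14. Pallens 1 was the highest of its subspecies, and quinquefasciatus 4 and 5 the highest of theirs, for alaserpin as for the first Gram-negative bacteria-binding protein.

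Serpin B10, CPIJ000214, had the largest change of all 64 immune genes but rested on few reads. It had 2, 14, 74, 14, 21, 10 and 2 reads in pallens 1 to 7 and 2, 0, 8, 2 and 0 reads in quinquefasciatus 1 to 5, which is 0.392 to 19.0 CPM in pallens and 0 to 1.43 CPM in quinquefasciatus. All pallens libraries but pallens 1 and 7 were above every quinquefasciatus library. The log2 change was 3.21 (SE 1.03, 95% interval 1.20 to 5.23, edgeR adjusted p = 0.206). DESeq2 gave 3.36 and an adjusted p of 0.0322, and over all alternatives that could be fitted the adjusted p ran up to 0.531. The estimate itself moved: it was 1.42 by limma on log2(RPKM + 1), and 2.91 (without quinquefasciatus 2) to 4.29 (without quinquefasciatus 3) with a library left out, while without any 1 of pallens 2 to 6 the gene failed the filter on low counts. A second serpin, CPIJ012016, was higher in pallens before adjustment, with 37.7 ± 10.2 CPM against 25.0 ± 4.96 in quinquefasciatus (log2 change 0.59, SE 0.22, adjusted p = 0.273). Its lowest library was pallens 1, with 20.8 CPM. The untested serpin B8, CPIJ017784, was the only one of the 96 genes whose libraries did not overlap, but it had 4 to 6 reads per pallens library and 2 or 3 per quinquefasciatus library.

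The prophenoloxidases are copper enzymes that circulate as inactive precursors, and their libraries differed more within a subspecies than the subspecies' means did. The most abundant, CPIJ016563 with 19.2 RPKM, ranged in pallens from 11.1 CPM through 50.0 to 66.1 and was 75.5, 28.3, 42.2, 24.3 and 14.2 CPM in quinquefasciatus. The neighbours CPIJ009877 and CPIJ009878 on supercont3.269 were highest in pallens 4, with 40.8 and 25.9 CPM, and in quinquefasciatus 1, with 43.0 and 18.1 CPM. Both were low in pallens 2, with 5.03 and 4.15 CPM, and in quinquefasciatus 5, with 7.08 and 3.67 CPM. Their r over the 12 libraries was 0.87 (permutation p = 0.00029, 0.0893 adjusted over 2016 pairs) and rho was 0.85 (permutation p = 0.00093, 0.161 adjusted). Without the pair of libraries farthest from the median of CPIJ009877 alone, r was 0.78.

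CPIJ009878 also tracked CPIJ016563, which lies on another scaffold (r = 0.86, permutation p = 0.00031, adjusted p = 0.0893, and rho 0.82, permutation p = 0.0018, adjusted p = 0.170). Of the 8 tested genes of the cascade, 4 log2 changes were above 0 and 4 below, between -0.25 and 0.46. The widest intervals were those of the prophenoloxidases, with -1.30 to 1.05 around -0.12 for CPIJ007275, the least read of those tested at 1.36 RPKM. For CPIJ009877 the interval ran from -1.20 to 0.74 around -0.23, and without quinquefasciatus 1 its log2 change was 0.34. At 3 loci prophenoloxidase genes lie near one another, and their use was uneven: on supercont3.896, CPIJ016564 had 1 read in all libraries together and CPIJ016563 was read in every library.

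The regulators of the cascade were steadier. The phenoloxidase inhibitor CPIJ001045, at 49.3 RPKM the highest of the role, had 54.6 ± 12.9 CPM in pallens and 41.0 ± 11.9 in quinquefasciatus (log2 change 0.41, 95% interval -0.02 to 0.84, adjusted p = 0.443). The prophenoloxidase activating factor CPIJ017796 had 22.1 ± 6.30 CPM in pallens and 16.0 ± 1.63 in quinquefasciatus (log2 change 0.46, SE 0.20, adjusted p = 0.346). Pallens 2, with 34.1 CPM, was its highest library.

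The antimicrobial peptides, small secreted proteins that disrupt microbial membranes, were abundant and erratic. Defensin-A, CPIJ001276 on supercont3.15, had a mean of 177 RPKM, with a range of 30.9 to 619 over the libraries. In pallens it ranged from 13.5 CPM (pallens 2) through 43.6 to 127 (pallens 3), and in quinquefasciatus it was 80.6, 80.1, 283, 69.6 and 128 CPM. Pallens 1, 2, 5, 6 and 7 lay below every quinquefasciatus library, and pallens 3 and 4 lay among them. On the log2 scale the change was -1.12 (SE 0.48, 95% interval -2.07 to -0.17, edgeR adjusted p = 0.356).

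Cecropin A and gambicin, a peptide known from mosquitoes, leaned the opposite way. Cecropin A, CPIJ010699, ranged in pallens from 13.5 CPM through 24.6 to 65.1 and was 7.64, 9.28, 58.1, 4.06 and 7.08 CPM in quinquefasciatus. All libraries of quinquefasciatus but library 3 lay below every pallens library. The log2 change was 0.90 (SE 0.66, 95% interval -0.40 to 2.19, adjusted p = 0.563). It depended on quinquefasciatus 3: without that library it was 2.20 (edgeR adjusted p = 0.110), and with any other library left out it was 0.64 to 1.03. Gambicin, CPIJ016084, ranged in pallens from 4.94 CPM (pallens 1) through 33.4 to 68.4 (pallens 6) and was 19.7, 9.49, 32.0, 2.56 and 6.55 CPM in quinquefasciatus, or 1.15 in log2 change (SE 0.64, adjusted p = 0.456). Its groups overlapped: quinquefasciatus 1 and 3 lay above pallens 1, 2 and 4, and pallens 1 lay below quinquefasciatus 2 and 5 as well.

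From library to library some peptide genes went along with each other or with other immune genes, though no pair passed the adjustment over 2016 pairs. Cecropin A and gambicin had r = 0.81 over the 12 libraries (permutation p = 0.0018, adjusted p = 0.123) and rho 0.76 (permutation p = 0.0053, adjusted p = 0.279), with r = 0.82 without the pair of farthest libraries. The r was 0.71 within pallens (exact permutation p = 0.073) and 0.82 within quinquefasciatus. Over the 12 libraries defensin-A tracked neither, with r = 0.13 (rho -0.06) for cecropin A and -0.03 (rho -0.15) for gambicin. For defensin-A these r were 0.38 and 0.09 within pallens and 0.92 and 0.66 within quinquefasciatus. Cecropin A also tracked CPIJ006716, the peptidoglycan recognition protein sb2 (r = 0.84, permutation p = 0.001, adjusted p = 0.109, and rho 0.83, permutation p = 0.0015, adjusted p = 0.170). Within pallens their r was 0.72 (exact permutation p = 0.083) and within quinquefasciatus 0.95. CPIJ006716 had 16.4 and 17.7 CPM in pallens 3 and 5 and 13.6 in quinquefasciatus 3. Gambicin ran against alaserpin (r = -0.88, permutation p = 0.00017, adjusted p = 0.0893, and rho -0.92, permutation p = 0.0001, adjusted p = 0.0941). Within pallens their r was -0.90 (exact permutation p = 0.0054) and within quinquefasciatus -0.92. A second cecropin, CPIJ010701, next to cecropin A, had 0 to 5 reads in pallens libraries and 0 to 13 in quinquefasciatus libraries and was not tested.

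**Figure D4:**
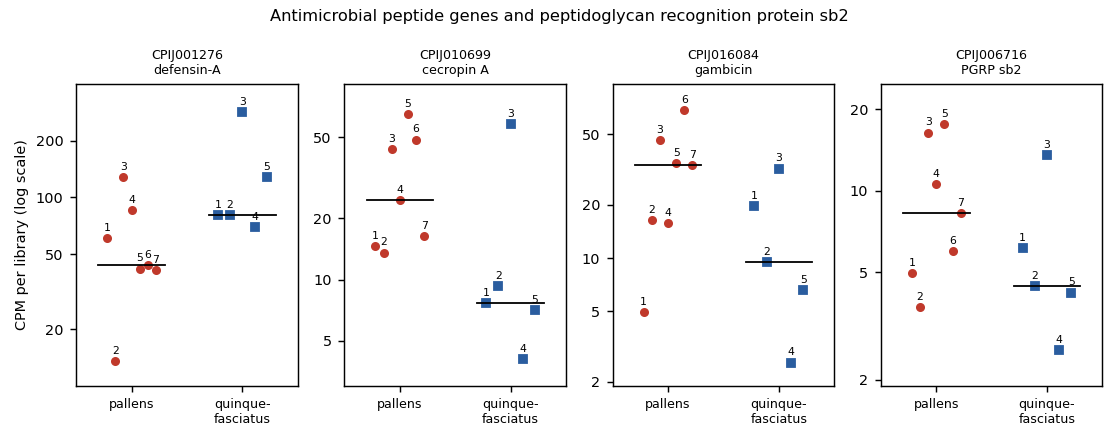
CPM per library (log axes, a scale for each panel) of defensin-A, cecropin A, gambicin and peptidoglycan recognition protein sb2, pallens as red circles and quinquefasciatus as blue squares, numbered by replicate, with a line at the median. Quinquefasciatus 3 is the highest library of its subspecies in all 4 panels.

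The lysozymes, enzymes that cleave bacterial peptidoglycan, made up a small share of the RPKM. Lysozyme P, CPIJ010730, had 34.6 ± 5.54 CPM in pallens and 33.3 ± 3.99 in quinquefasciatus, with a log2 change of 0.06 (95% interval -0.24 to 0.36). Its neighbour lysozyme c-4, CPIJ010731, was less regular: it ranged in pallens from 1.56 CPM through 3.28 to 11.8 and was 2.67, 14.3, 6.79, 10.2 and 8.13 CPM in quinquefasciatus (log2 change -0.61, 95% interval -1.67 to 0.44, adjusted p = 0.634). The 2 genes thus differed in spread although they lie within 14097 bases. The third tested, CPIJ002161, had 10.2 ± 4.62 CPM in pallens and 8.53 ± 2.70 in quinquefasciatus (log2 change 0.25, 95% interval -0.39 to 0.89).

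The 7 thioesterase enzymes formed a steady set beside the immune genes. The highest was ubiquitin thioesterase OTUB1, CPIJ002452, with 33.2 RPKM and 34.9 ± 3.08 CPM in pallens and 35.2 ± 6.94 in quinquefasciatus. Together they summed to 124 ± 8.28 CPM in pallens and 125 ± 5.38 in quinquefasciatus, and the tested 6 had log2 changes between -0.31 and 0.32. Without them, 14 of 58 tested genes passed an unadjusted p under 0.05 (24.1%) and the median log2 change was still -0.06.

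The spread within a subspecies is given over all immune genes of a fair level. For the 51 tested immune genes whose average log2 CPM reached 3, the typical SD among libraries of 1 subspecies, on log2(CPM + 1), was a median of 0.442, against 0.377 for all 7190 genes of that level. Of the 51, 10 had an SD above the 90th percentile of those 7190. The largest were gene CPIJ004321 with an SD of 1.45, CPIJ004324 with 1.29, gambicin with 1.22, cecropin A with 1.13, CPIJ004320 with 1.05 and the peptidoglycan recognition protein CPIJ016771 with 1.03. Recognition proteins and antimicrobial peptides thus supplied the 6 widest, and Toll, lysozyme P and serpin B6 the steadiest among those named.

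**Figure D5:**
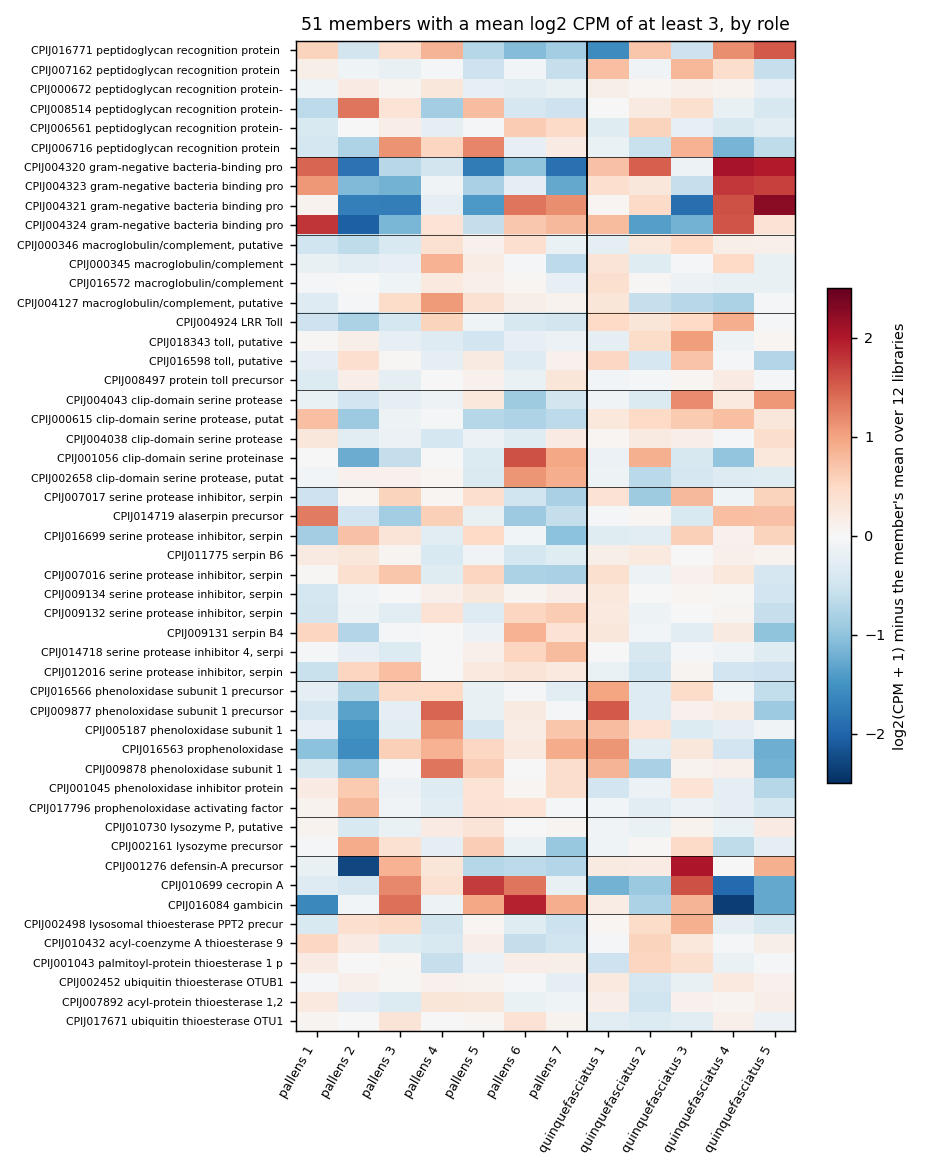
Log2(CPM + 1) of the 51 immune genes whose average log2 CPM reached 3 in each library, minus the gene's mean over the 12 libraries, in order of role, with pallens left of the black line and quinquefasciatus right of it. Strong colours sit in the Gram-negative bacteria-binding proteins, the prophenoloxidases and the antimicrobial peptides, and differ from library to library within both subspecies.

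Genes that act beside these ones were taken by other words in the descriptions. Of 17 genes of Toll, Imd and JAK-STAT signalling, 14 were tested and 0 were called (0 also at an unadjusted p under 0.05, and 0 by DESeq2 or limma-voom), with a median log2 change of 0.15. The words also took 1 nikkomycin biosynthesis gene, which is no signalling gene. Of 29 genes of melanin synthesis, 20 were tested and 0 were called by edgeR or limma-voom, with a median log2 change of 0.21. Before adjustment 3 were higher and 3 lower in pallens (30.0%, against 13.0% of all genes tested). DESeq2 called 2 lower, CPIJ002149 and CPIJ002393. The word yellow also took CPIJ005882, described as Enhancer of yellow 2 transcription factor, which is no melanin synthesis gene. Phenylalanine hydroxylase CPIJ002149, which makes tyrosine, had 5.86 ± 1.39 CPM in pallens and 12.1 ± 6.38 in quinquefasciatus (log2 change -1.05, SE 0.28, edgeR adjusted p = 0.130). Dopachrome-conversion enzyme CPIJ002393 had 50.3 ± 26.9 CPM in pallens and 123 ± 37.7 in quinquefasciatus (log2 change -1.29, SE 0.37, adjusted p = 0.156). Other entries of these enzymes changed less. Phenylalanine-4-hydroxylase CPIJ002148, at 58.2 RPKM against 15.1 for CPIJ002149, had a log2 change of -0.45 (edgeR adjusted p = 0.379). Dopachrome conversion enzyme CPIJ002395, at 166 RPKM against 63.3 for CPIJ002393, had -0.29 (adjusted p = 0.619), and CPIJ002394 had -0.37 (adjusted p = 0.422). The 3 higher before adjustment were a laccase given below and the yellow protein precursors CPIJ018481 and CPIJ011423. Their log2 changes were 0.91 (edgeR adjusted p = 0.278) for CPIJ018481 and 0.92 (edgeR adjusted p = 0.291) for CPIJ011423. Of 19 genes taken by words for haemocyte proteins, mostly receptors for uptake but also peroxidasin CPIJ016744, which is no receptor, 9 were tested and 0 were called by edgeR, DESeq2 or limma-voom (1 at an unadjusted p under 0.05, lower in pallens). Their log2 changes were above 0 for 6 and below 0 for 3, with a median of 0.22. The summed level was 383 ± 123 CPM in pallens and 508 ± 155 in quinquefasciatus, of which croquemort CPIJ003103 alone had 131 ± 118 CPM in pallens and 271 ± 157 in quinquefasciatus (log2 change -1.05, SE 0.56, edgeR adjusted p = 0.443). Draper CPIJ002121 (log2 change 0.30, adjusted p = 0.428), croquemort CPIJ003102 (0.22, adjusted p = 0.654) and scavenger receptor CPIJ019101 (0.55, adjusted p = 0.563) lay above 0. The gene under the unadjusted threshold, croquemort CPIJ012252, named for a *Drosophila* receptor that takes up dying cells, had 17.2 ± 8.30 CPM in pallens and 34.8 ± 10.9 in quinquefasciatus (log2 change -1.02, SE 0.29, adjusted p = 0.152). Without pallens 1 it was called (log2 change -1.30, edgeR adjusted p = 0.00953), and so was CPIJ002393 (-1.54, adjusted p = 0.0384).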

How the data were processed

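The authors deposited a table per library that holds, per the file headers, the count of uniquely mapped reads for each gene model, its length, the percent of the model covered, and RPKM. The deposited RPKM was used for levels between genes, and the deposited count for all tests. By the deposited coverage percent, tested immune genes were covered over a median of 77.5% in pallens and 83.4% in quinquefasciatus. Over all tested genes the medians were 69.7% and 72.8%. Both medians were thus lower in pallens, and the part of read mapping in the log2 changes was not tested. Aligner, counter and build: not given in the sources used here. Genes absent from a table were set to 0. Of the model lengths, 89.2% were multiples of 3, so they are mostly coding lengths. Identifiers and descriptions are those of the files; none of them (0) was found in the RefSeq table, so it was not used. Without strand, reads of CPIJ009132 and of a gene overlapping it on the opposite strand cannot be told apart; no other immune gene overlapped a gene model.

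Counts were tested with edgeR 4.0.16 (R 4.3.3): TMM factors (0.833 to 1.19), filterByExpr, robust quasi-likelihood, contrast pallens minus quinquefasciatus over 12 libraries, Benjamini-Hochberg adjustment over 10617 genes, threshold 0.05. The biological coefficient of variation was 42.0%. Tested on simulated data for pallens against quinquefasciatus (10617 genes), the fit found 15 of 100 true 2-fold changes and 82 of 100 true 4-fold changes, and 2 of its 99 calls were false. The changed genes were drawn from those with a mean log2 CPM above 2. Recovery of less-read genes, such as serpin B10 (1.74), was not simulated. Where a library had 0 reads, up to 3 reads (0.579 to 0.772 CPM) are allowed by counting error alone. Spread and correlations used log2(CPM + 1), with 100000 permutations over all 12 libraries regardless of subspecies, so a shift shared by both genes between the subspecies adds to r. Alternatives were DESeq2 1.42.0, limma 3.58.1, other factors and filters, covariates, and libraries left out. Named genes were, in each role, the 2 with the highest RPKM and the 2 with the smallest p, plus the 6 with the largest spread and those within 20 kb of another. Serpin B8, prophenoloxidase CPIJ007275 and the genes named from the other lists were chosen after their values were seen. The genes and lists were chosen with earlier results of these data known.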

Additional observations from a re-analysis of the deposited data

Results flagged for a closer look

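For each of 47 named tested genes, the highest and the lowest library within each subspecies were set against the nearest other library by Dixon's criterion, which made 94 groups. In 12 of them a library stood far above the rest, and in 0 far below. Chance marks about 1 group in 20 when values are spread normally and groups are independent and not picked by their values. Here some genes were named for a large spread or a small p, and some are neighbours that rose in the same library. The spread of the CPM values was not checked, so that rate is no yardstick for the 12. Pallens 1 stood apart for CPIJ004320 (189 CPM, next 49.6), CPIJ004323 (166, next 73.2), CPIJ004325 (12.7, next 2.02) and the CLIP-domain protease CPIJ000615 (265, next 155). Pallens 4 stood apart for the macroglobulin CPIJ000345 (67.1 CPM, next 41.1), LRR Toll CPIJ004924 (134, next 84.0) and the prophenoloxidase CPIJ009877 (40.8, next 16.8), and pallens 3 for serpin B10 CPIJ000214 (19.0, next 5.30).

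In quinquefasciatus, library 3 stood apart for defensin-A CPIJ001276 (283 CPM, next 128) and cecropin A CPIJ010699 (58.1, next 9.28). Library 2 stood apart for PGRP-LC CPIJ006561 (47.9, next 27.9) and library 1 for CPIJ009877 (43.0, next 16.2). The causes were not tested.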

How the results depend on the processing

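The number of immune genes called was 0 under all alternatives but these: 1 by DESeq2, 2 without pallens 1 and quinquefasciatus 5 together, and 0 to 2 with each library left out in turn (2 without pallens 1). The number of all genes called was 57, and moved to 2 at an adjusted p under 0.01, 143 under 0.1, 19 with the cuticle list as a covariate, 325 by DESeq2, 92 by limma-voom, 111 and 107 by limma on log2 RPKM with pseudocounts of 0.1 and 1, 366 without pallens 1 and quinquefasciatus 5, and 5 without pallens 6 and 7. With each library left out in turn it was 9 (without quinquefasciatus 1, or without quinquefasciatus 3) to 230 (without pallens 1). For the 47 tested named genes 1237 values under an alternative kept direction and side of the threshold, 5 passed it and 68 changed sign. The passing ones were serpin B10 by DESeq2 (3.36), and CPIJ000615 (-1.003, -1.05) and CPIJ004320 (-2.63, -2.45) without pallens 1, alone or with quinquefasciatus 5.

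The sign changes were as follows, with log2 changes in the full data between -0.25 and 0.25. CPIJ004324 became 0.0030 with upper-quartile factors, 0.051 with library totals, 0.83 with the cuticle and 0.0096 with the storage covariate, and -0.46 to 0.50 with a library left out. OTUB1 (CPIJ002452) became 0.015 (upper quartile), 0.048 (totals), 0.0043 (cuticle), 0.040 (storage), 0.010 (limma-voom), 0.055 and 0.054 (log2 RPKM), 0.017 without pallens 1 and quinquefasciatus 5, 0.052 without pallens 6 and 7, and -0.11 to 0.054 with a library left out. Protein toll precursor (CPIJ008497) became 0.031 with totals and -0.094 to 0.011 with a library left out, lysozyme CPIJ002161 became -0.23 and alaserpin CPIJ014719 0.13 with the cuticle covariate, and without pallens 6 and 7 alaserpin became 0.0014 and CPIJ006561 became -0.0022. Among genes named only as neighbours, macroglobulin CPIJ000345 became 0.014 (cuticle), 0.018 (storage), 0.065 without pallens 6 and 7, and -0.27 to 0.062 with a library left out. Phenoloxidase CPIJ005187 became 0.025 (upper quartile), 0.020 (totals), 0.12 (cuticle), and -0.27 to 0.21 with a library left out, CPIJ009877 -0.67 to 0.34 and CPIJ016566 -0.41 to 0.065. Serpin CPIJ007016 became 0.0030 (DESeq2 size factors), 0.021 (upper quartile), 0.011 (totals), 0.078 (storage), 0.25 without pallens 6 and 7, and -0.14 to 0.11 with a library left out. CPIJ006558 became -0.044 (cuticle) and CPIJ009134 -0.053, and with a library left out they were -0.0012 to 0.58 and -0.053 to 0.12. Without pallens 6 and 7 CPIJ009132 became -0.082 and CPIJ016699 0.0036, and without pallens 1 and quinquefasciatus 5 CPIJ016699 became 0.044. The cause was not tested. No paired analysis was possible because the labels number no replicates, and numbers set by accession order pair no libraries. Genes near 2-fold were seldom recovered in simulation, and 32 immune genes had too few reads to test.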

Other observations

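Of 6 related genes that the words of the rule leave out, 4 were tested and 0 were called. The precursor of a beta-1,3-glucan-binding protein, CPIJ003613, is related by name to the Gram-negative bacteria-binding proteins and was read at 64.5 RPKM. It had 63.9 ± 16.6 CPM in pallens and 100.6 ± 19.1 in quinquefasciatus (SD, log2 change -0.65, SE 0.21, edgeR adjusted p = 0.201). Of the pair of genes described as Toll9, CPIJ006150 had 18.4 ± 7.61 CPM in pallens and 27.3 ± 8.79 in quinquefasciatus (log2 change -0.57, SE 0.27, adjusted p = 0.394), and CPIJ006515 had 10.5 ± 5.62 CPM in pallens and 11.2 ± 3.69 in quinquefasciatus (log2 change -0.09, SE 0.37, adjusted p = 0.936). SpZ12-1, CPIJ019191, had 3.81 ± 1.17 CPM in pallens and 3.82 ± 0.962 in quinquefasciatus (adjusted p = 0.998). Of the melanin synthesis genes, laccase-like multicopper oxidase CPIJ010466 had 23.9 ± 29.7 CPM in pallens and 4.85 ± 5.07 in quinquefasciatus (log2 change 2.27, SE 0.87, adjusted p = 0.295). The laccase was chosen after its values were seen.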
